A study of Mus musculus with 4 samples.

Results

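The 10 genes studied here belong to osteoclast formation and bone resorption, and they were followed across the cells of mouse trabecular bone. They were taken by symbol from the 31053 genes of the deposited matrix, and all 10 were found. Tnfsf11 encodes the cytokine RANKL, Tnfrsf11a its receptor RANK and Tnfrsf11b the secreted decoy receptor osteoprotegerin. Nfatc1 encodes a transcription factor, Dcstamp and Ocstamp encode membrane proteins of cell fusion, and Calcr encodes the calcitonin receptor. Acp5 (tartrate-resistant acid phosphatase), Ctsk (cathepsin K) and Atp6v0d2 (a subunit of the vacuolar proton pump) belong to the resorption machinery.

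Osteoclasts are multinucleated bone-resorbing cells that form by fusion of myeloid precursors. RANKL on osteoblast-lineage, stromal and lymphoid cells binds RANK on the precursor, and osteoprotegerin competes with RANK for the ligand. RANK signalling induces NFATc1, which drives genes for fusion, acid secretion and matrix digestion, and calcitonin acts on the mature cell to halt resorption.

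The cells were released with dispase, collagenase and trypsin from the tibia, both its proximal and its distal end, at 8 weeks of age, and profiled on the 10x Genomics droplet platform. The 4 sample records form 1 group: Col10a1Cre and Rosa26-Tdtomato with 1 altered allele each of Irx3 (+/Δ) and Irx5 (+/-), given no PTH and labelled as the heterozygous control. All cells thus carry these alleles, no wild type or treated group was analysed here, and the Cre driver is known to act in hypertrophic chondrocytes. The deposited matrix pools the records as 1 library, and nothing in the labels says whether they are separate animals, so no replicate error can be given. Every interval below is a 95% interval for counting error only, and no test between animals was possible.

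The matrix held 15014 barcodes and 90273806 UMIs (unique molecular identifiers, each a tag for 1 captured RNA molecule), with a median of 3812 UMIs per barcode. After filters, 10485 cells in 30 clusters were kept. Clusters were formed with the 10 genes removed from the variable genes and were named from markers that include none of them, so the 10 genes took no part in defining the classes. The osteoclast-like class is small, and with a 5% mitochondrial limit, a minimum of 1500 UMIs, resolution 0.5 or doublets kept its cells were not named as a class of their own. The osteoclast-like class held 34 cells (0.324% of kept cells) at a median of 20606.5 UMIs. In it 7 of 12 osteoclast markers were raised (Mmp9, Ckb, Slc9b2, Rufy4, Clcn7, Tcirg1 and Cd109), whereas Oscar and Tm4sf19 had 1 UMI each and Car2 and Itgb3 were lower than in the other cells. Of 10 macrophage markers 1, Axl, was at least 2-fold higher there and 3 (Cd163, Mertk and Cd5l) were at 0; their summed level was 247 CPM against 184 CPM in all other cells, and C1qb was at 49.3 CPM against 2460 CPM in macrophage-like cells. The part of macrophage RNA in the results for the class was not tested. Of 8 monocyte markers 2, Csf1r and S100a4, were at least 2-fold higher in the class, and the 8 summed to 4384 CPM against 1108 CPM in all other cells. Of that sum S100a4 alone gave 4004 CPM and Csf1r 309 CPM. Ly6c2 was at 20.3 CPM against 1670 CPM in monocyte-like cells, Ccr2 at 10.2 against 701 and Fn1 at 1.45 against 1387. Also at least 2-fold higher in the class was 1 marker each of marrow stromal cells (Lpl), plasma cells and pericytes or smooth muscle. In the class chondrocyte, osteocyte and adipocyte markers were all at 0. The osteoblast-like class held 116 cells and also had raised marrow stromal markers, and 48 of its cells had a Col1a1 UMI, so osteoblasts and stromal cells were not separated.

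Promoter sequences are shown for 3 genes that were high in the osteoclast-like class and for the ligand gene, which was at 0 there, so that the starts of genes with opposite patterns can be set side by side. RefSeq promoters (GRCm38.p6) matched 5 of the 10 genes, and Dcstamp, Ocstamp, Atp6v0d2, Nfatc1 and Tnfrsf11b had no entry. Each line gives the 250 bases before the RefSeq start nearest to the gene's start in GENCODE, 5′ to 3′ on the gene's strand. For Tnfrsf11a it gives 245, since the last bases lie in an annotated exon. Acp5 had 3 listed starts. The RefSeq starts of Acp5 and Ctsk differ from GENCODE, so these windows end short of the gene positions given below. Capitals mark matches, on both strands, to GGAAA (the core of NFAT sites), TGANTCA (AP-1), CACGTG or CATGTG (E-boxes) and GAGGAA (PU.1 core, which can overlap GGAAA by 4 bases).
Acp5 promoter, chr9:22135747-22135996, strand minus: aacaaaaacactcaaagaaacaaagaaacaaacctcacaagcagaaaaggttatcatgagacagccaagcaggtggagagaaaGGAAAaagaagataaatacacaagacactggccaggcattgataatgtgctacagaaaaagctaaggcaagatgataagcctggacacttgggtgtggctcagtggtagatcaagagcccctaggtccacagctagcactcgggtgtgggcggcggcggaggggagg
Ctsk promoter, chr3:95498960-95499209, strand plus: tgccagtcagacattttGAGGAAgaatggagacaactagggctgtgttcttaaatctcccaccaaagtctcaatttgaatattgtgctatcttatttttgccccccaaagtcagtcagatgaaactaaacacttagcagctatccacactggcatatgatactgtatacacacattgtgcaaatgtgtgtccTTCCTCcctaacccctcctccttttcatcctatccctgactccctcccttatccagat
Tnfrsf11a promoter, chr1:105780473-105780717, strand plus: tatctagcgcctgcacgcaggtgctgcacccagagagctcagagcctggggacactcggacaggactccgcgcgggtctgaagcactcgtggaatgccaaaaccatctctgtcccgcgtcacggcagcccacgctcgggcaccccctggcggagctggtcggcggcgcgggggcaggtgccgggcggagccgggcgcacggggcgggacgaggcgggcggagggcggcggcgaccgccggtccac
Tnfsf11 promoter, chr14:78308044-78308293, strand minus: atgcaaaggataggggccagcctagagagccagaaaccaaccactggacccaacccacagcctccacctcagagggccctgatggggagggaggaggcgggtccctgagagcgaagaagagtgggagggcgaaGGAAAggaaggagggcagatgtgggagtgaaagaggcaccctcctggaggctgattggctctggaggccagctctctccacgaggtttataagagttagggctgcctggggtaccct

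In these windows GGAAA matched once in Acp5 (167 bases before the start) and once in Tnfsf11 (117 bases before), GAGGAA matched 2 times in Ctsk, and Tnfrsf11a had no match to any of the motifs. Among all 32851 RefSeq promoter windows of 250 bases, 55.6% held GGAAA, 23.3% GAGGAA, 17.6% an E-box of this form and 6.75% TGANTCA. A match describes letters only, and no binding was measured. The genes lie at chr9:22126727-22135711 (Acp5), chr3:95499256-95509362 (Ctsk), chr1:105780718-105847981 (Tnfrsf11a) and chr14:78277445-78308043 (Tnfsf11) in GRCm38, all protein-coding in GENCODE vM21. Acp5 and Nfatc1 each overlap 1 gene on the other strand that has no row in the matrix.

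Relative to all other kept cells, 7 of the 10 genes were at least 2-fold higher in the osteoclast-like class. Of the 10 genes 8 passed the filter of 20 UMIs on both sides together; the 7 called ones each had at least 20 UMIs outside the class as well. Over all 13615 genes with at least 20 UMIs on both sides together, 16.6% were at least 2-fold higher and 18.0% at least 2-fold lower. The folds were 1895 for Atp6v0d2 (interval 1235 to 3059), 1012 for Ctsk (853 to 1207), 246 for Dcstamp (162 to 381) and 233 for Ocstamp (136 to 410). Those of Acp5 (179, interval 168 to 190), Tnfrsf11a (138, interval 99.3 to 191) and Nfatc1 (12, interval 10.6 to 13.4) were lower. Tnfsf11, Tnfrsf11b and Calcr had 0 UMIs in the 34 cells, which at 3 counts allows 4.35 CPM (the gene's UMIs scaled by all UMIs of the class) for each; the exact 95% interval for 0 ends at 5.35 CPM.

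**Figure D1:**
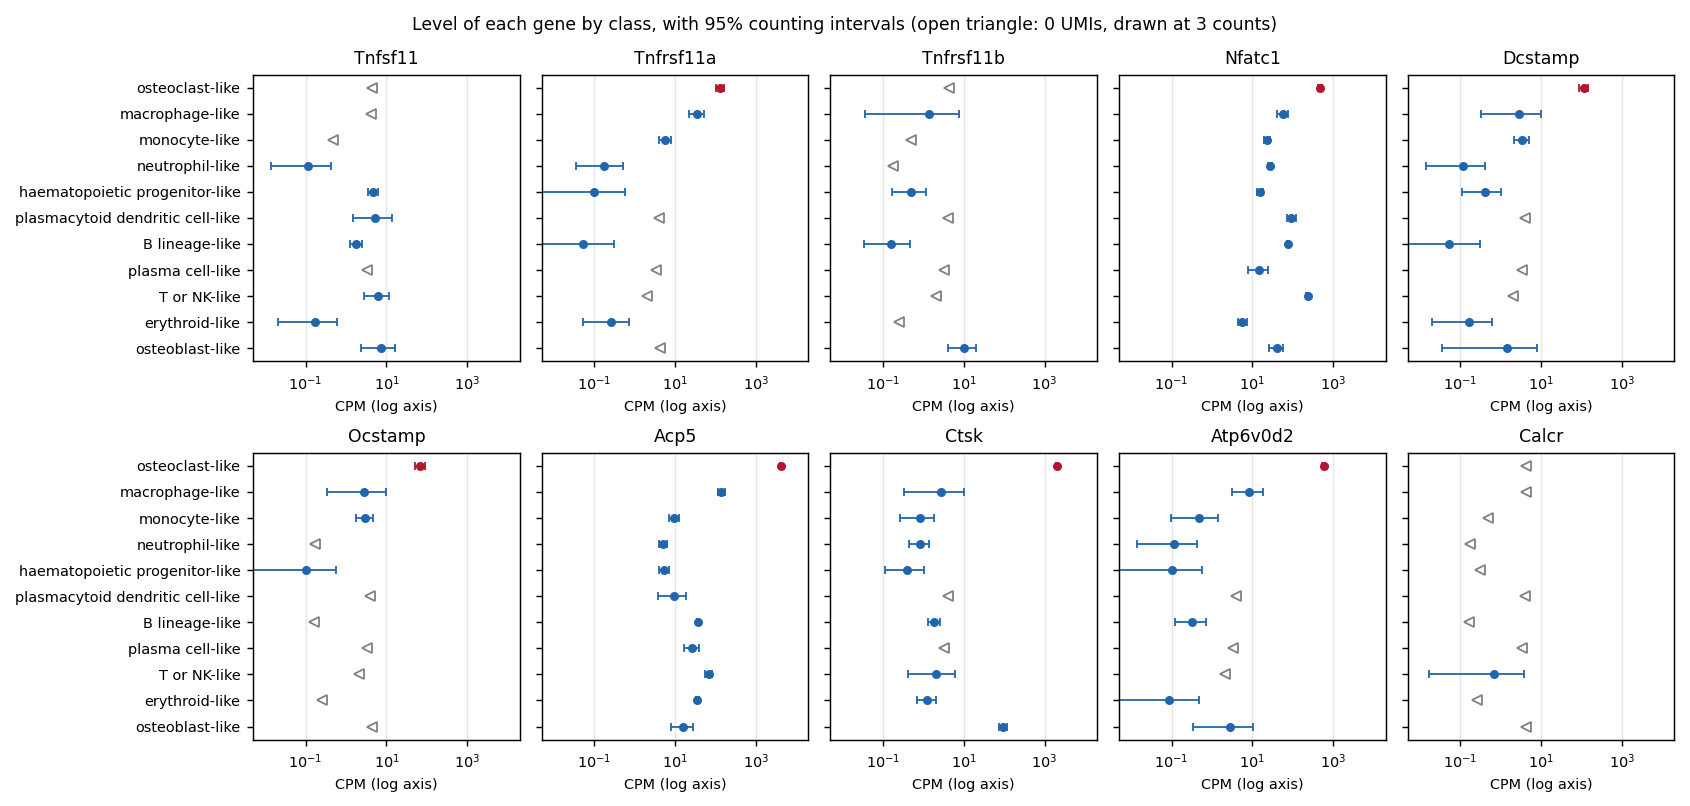
Level of each of the 10 genes (CPM, log axis) in 11 named classes; points are summed UMIs of a class with 95% counting intervals, and open triangles mark classes with 0 UMIs, drawn at 3 counts. The osteoclast-like class (red) has the highest point for 7 genes, such as Acp5 at 4057 CPM beside 140 CPM in macrophage-like cells, while Tnfsf11, Tnfrsf11b and Calcr are at 0 there.

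Against the 853 monocyte-like or macrophage-like cells, the nearest myeloid classes, the same 7 genes were again at least 2-fold higher. Over the 10088 genes tested in that comparison 12.8% were higher and 22.9% lower. The fold of Ctsk was 2060 (interval 997 to 5133) and that of Atp6v0d2 449 (234 to 990), but these genes had 7 and 9 UMIs in the 853 cells and passed the filter through the osteoclast-like class. Acp5 was 176-fold higher (150 to 208), Dcstamp 34.2-fold (21.2 to 57.1), Ocstamp 23.7-fold (13.8 to 42.2), Nfatc1 17.5-fold (14.6 to 21.1) and Tnfrsf11a 15.1-fold (10.8 to 21.3). Most UMIs of the receptor and fusion genes outside the osteoclast-like class lay in these myeloid cells: 60 of 68 for Tnfrsf11a, 23 of 33 for Dcstamp and 20 of 21 for Ocstamp. The Dcstamp fold against the myeloid classes was 145 at clustering resolution 2.0. With a mitochondrial limit of 30% the Ocstamp fold was 40.0 against the myeloid classes and 370 against all other cells.

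**Figure D2:**
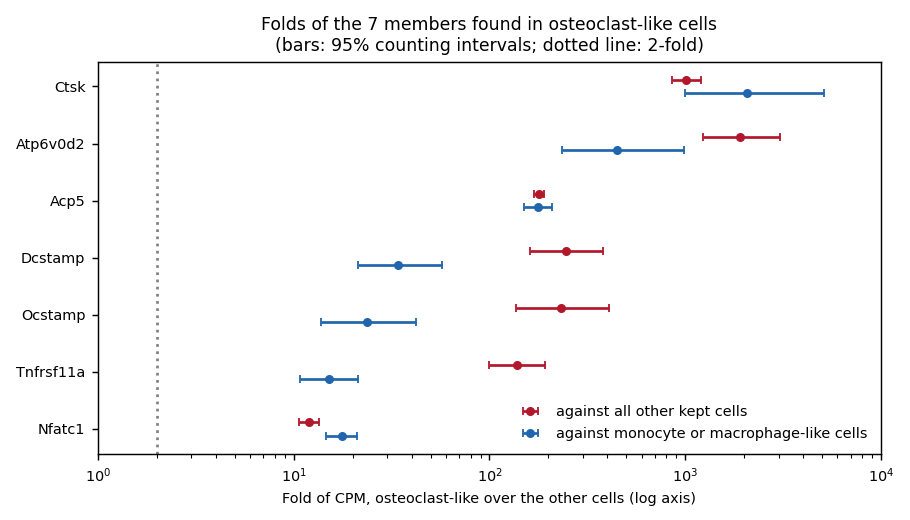
Fold of CPM (log axis) of the osteoclast-like class over all other kept cells (red) and over monocyte-like or macrophage-like cells (blue) for 7 genes, with 95% counting intervals. Dcstamp, Ocstamp and Tnfrsf11a lie between 138 and 246 against all cells and between 15.1 and 34.2 against the myeloid classes, and all points lie right of the dotted 2-fold line.

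The ligand gene Tnfsf11 was sparse, with 106 UMIs in kept cells, and most of them lay in lymphoid and stem-like cells. A progenitor cluster of 131 cells led by Mecom and Procr, genes of haematopoietic stem and early progenitor cells, held 46 of the UMIs in 21 cells (21.4 CPM, interval 15.6 to 28.5), with at most 7 in a cell. A B-lineage cluster of 285 cells led by Dntt and Vpreb2, genes of early B cells, held 30 UMIs in 17 cells (14.3 CPM, interval 9.62 to 20.4). The T-cell cluster of 209 cells had 9 UMIs (9.28 CPM, interval 4.24 to 17.6). In this order each interval overlaps the next. That of the stem-like cluster also overlaps the interval of osteoblast-like cells, and lies above that of plasmacytoid dendritic cell-like cells (5.30 CPM, 1.44 to 13.6).

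Osteoblast-like cells held 5 Tnfsf11 UMIs in 5 cells (7.12 CPM, interval 2.31 to 16.6). This was 5.05-fold above all other cells (interval 1.61 to 12.2). In that comparison 2 of the 10 genes, Tnfsf11 and Ctsk, were at least 2-fold higher and 2, Acp5 and Atp6v0d2, at least 2-fold lower, beside 15.1% and 11.5% of all genes tested. The cells compared with include the osteoclast-like class, which holds most of their Acp5, Ctsk and Atp6v0d2 UMIs, and both lower calls were lost without it, as given for each gene below. Of the 5 cells with Tnfsf11, 4 had 0 or 1 Col1a1 UMI and all 5 had Cxcl12, a marrow stromal gene, whereas the fifth had 258 Col1a1 UMIs. In the whole class of 116 cells 34 had 2 or more Col1a1 UMIs and 72 had Cxcl12, and 5 cells are too few to be told apart from that. At clustering resolution 2.0 the class shrank to 14 cells with 1 Tnfsf11 UMI, and the Tnfsf11 call was lost. An unnamed cluster of 18 cells led by Il5, Il13 and Gata3 had 4 UMIs in 4 cells, which is 58.9 CPM with an interval from 16.1 to 151. Monocyte-like, macrophage-like and osteoclast-like cells had 0 UMIs. After thinning each cell to 1000 UMIs, a Tnfsf11 UMI was left in 1 of 79 osteoblast-like cells, 1 of 130 cells of the stem-like cluster (16% of cells unthinned, at a median of 13717 UMIs), 2 of 283 of the early B cluster and 5 of 205 of the T-cell cluster, too few to order them.

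Tnfrsf11a, the receptor gene, was read along the myeloid series. Its level was 131 CPM (interval 105 to 161) in osteoclast-like cells, 34.6 CPM (22.4 to 51.1) in macrophage-like cells and 5.62 CPM (3.92 to 7.82) in monocyte-like cells, and none of these intervals overlap. A UMI was found in 24 of 34 osteoclast-like cells, 18 of 222 macrophage-like cells and 34 of 631 monocyte-like cells, whereas B lineage-like, erythroid-like and neutrophil-like cells together gave 7 UMIs. The macrophage-like cells were shallow (median 1058 UMIs), and after thinning the shares were 16.1% (5 of 31 cells), 1.69% (2 of 118) and 0.801% (5 of 624). Among the 34 cells the count ran from 0 over a median of 2 to 9.

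Tnfrsf11b, the decoy receptor gene, had 16 UMIs in the whole matrix, all in kept cells, and so fell short of the 20 needed for a call. The osteoblast-like class held 7 of them in 5 cells (9.97 CPM, interval 4.01 to 20.5), with 5 in progenitor-like, 3 in B lineage-like and 1 in macrophage-like cells. Of the 5 osteoblast-like cells with Tnfrsf11b and the 5 with Tnfsf11, 1 had both. All 5 cells with Tnfrsf11b had at least 258 Col1a1 UMIs. These were deep cells, with between 18553 and 40819 UMIs against a class median of 2752.5, so both genes were easier to detect in them. With so few UMIs neither gene's level in these cells is known to better than several-fold.

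Nfatc1, the transcription factor that RANK signalling induces, had the smallest fold of the 7 against all other cells, though not against the myeloid classes, where that of Tnfrsf11a was smaller. It stood at 464 CPM (interval 415 to 518) in osteoclast-like cells and at 232 CPM (208 to 258) in T or NK-like cells, where the NK cluster of 96 cells led by Gzma and Ncr1 had 341 CPM (292 to 396). In the B lineage a cluster of 545 cells led by Egr1, Egr2 and Egr3, immediate-early genes that follow receptor signals, had 272 CPM (249.4 to 295), against 178 CPM (158 to 199) in the 553 cells led by Cr2 and Fcer2a. Neutrophil-like (27.3 CPM) and monocyte-like cells (23.0 CPM) were lower, and erythroid-like cells lowest at 5.64 CPM (4.37 to 7.17). After thinning, 38.7% of osteoclast-like, 37.5% of NK-cluster and 19.1% of the Egr-led B cells had a UMI, so the shares in osteoclast-like and NK cells (12 of 31 and 36 of 96 cells) were close at equal depth.

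Both fusion genes were seen in few cells of other classes. Dcstamp was at 113 CPM (interval 89.5 to 141) in osteoclast-like cells, where 18 of 34 cells had a UMI and 1 cell held 19 of the 78 UMIs. Monocyte-like cells had 21 UMIs in 8 of 631 cells (3.37 CPM), with 7 in 1 cell. Ocstamp was at 68.2 CPM (50.1 to 90.7) with UMIs in 15 osteoclast-like cells, and at 2.89 CPM (1.71 to 4.57) with 18 UMIs in 15 monocyte-like cells. No Ocstamp UMI was found in B lineage-like, neutrophil-like or erythroid-like cells, while Dcstamp had 5 there. In the osteoclast-like class 10 cells had both genes, 8 Dcstamp alone, 5 Ocstamp alone and 11 neither.

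The resorption gene Acp5 reached 4057 CPM (interval 3908 to 4211) in osteoclast-like cells, with UMIs in 31 of 34 cells and counts from 0 over a median of 46.5 to 304. It was also found well beyond that class. Macrophage-like cells had 140 CPM (114 to 170), T or NK-like cells 67.3 CPM (54.7 to 81.9) and B lineage-like cells 36.5 CPM (33.8 to 39.4), and neutrophil-like cells 5.03 CPM (4.03 to 6.2). One erythroid-like cluster of 388 cells, with the highest Mki67 and Klf1 of the erythroid-like clusters, had 104 CPM (93.8 to 115): 129 of its cells had a UMI, 72 had 2 or more and 1 had 17. The other erythroid-like clusters ranged from 0 to 14 CPM, and the Acp5-bearing cluster had 7 Ctsk UMIs and no Atp6v0d2 UMI.

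Ctsk, the collagen-degrading protease gene, was at 2075 CPM (interval 1969 to 2186) in osteoclast-like cells, where counts ran from 0 over a median of 13 to 237. In B lineage-like, erythroid-like, monocyte-like, progenitor-like and neutrophil-like cells 0.424% to 0.932% of cells had a Ctsk UMI, at 0.403 to 1.83 CPM and median depths that differ between these classes. The osteoblast-like class stood above all of them at 94.0 CPM (72.7 to 120), with a UMI in 19 of 116 cells (16.4%). Its fold over all other cells was 4.46 (3.43 to 5.70), but 1430 of the 1511 UMIs of those cells lay in the osteoclast-like class. Without that class the other cells were at 1.14 CPM and the fold was 82.3 (58.6 to 115). With the osteoclast-like cells included the fold was 7.52 at resolution 2.0, 1.68 at a mitochondrial limit of 30% and 1.80 with no limit. The 2-fold call was lost in the last pair. At a limit of 5% the fold was 16.2, but only 7 of the 34 osteoclast-like cells were kept there. The osteoblast-like side changed as well, from 116 cells to 14 at resolution 2.0, 230 at 30%, 234 with no limit and 60 at 5%. Under the main settings thinned shares were 6.33% in osteoblast-like cells against 0.175% in B lineage-like cells. Of the 19 cells 17 also had Col1a1, and 52 of the 66 UMIs lay in cells with no Acp5 UMI. Of the 12 osteoclast markers Slc9b2, Oscar and Tm4sf19 were at 0 in the class. Ckb was at 320 CPM (141 in osteoclast-like cells), Cd109 at 21.4 (18.9) and Itgb3 at 17.1 (5.80), and Car2 was also above its osteoclast-like level. Below that level were Mmp9 at 268 (1283), Tcirg1 at 28.5 (425), Clcn7 at 9.97 (66.8), Rufy4 at 1.42 (33.4) and Ostm1 at 17.1 (21.8). In neutrophil-like cells Mmp9 was at 976 CPM. The neutrophil gene S100a8 was at 19035 CPM in the osteoblast-like class, and the part of neutrophil RNA there was not tested. A single osteoblast-like cell held 20 of the Ctsk UMIs, together with 3836 Col1a1 UMIs and none of Acp5.

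Atp6v0d2, the pump subunit, had 401 UMIs in the class and 22 in all other cells (581.9 CPM, interval 526 to 642). Macrophage-like cells had 6 UMIs in 6 cells (8.30 CPM, 3.05 to 18.1), and B lineage-like cells 6 in 6 cells (0.323 CPM). Osteoblast-like cells had 2 UMIs (2.85 CPM), 0.485-fold of all other cells together (interval 0.0585 to 1.76), where 401 of the 421 UMIs lay in the osteoclast-like class. Without that class the others were at 0.282 CPM and the direction turned (10.1-fold, 1.14 to 41.6). Acp5 in osteoblast-like cells was at 0.254-fold (0.127 to 0.455) with the osteoclast-like class among the others and at 0.687-fold (0.342 to 1.23) without it. Nfatc1 and Dcstamp were within 2-fold of all other cells together, and Tnfrsf11a and Ocstamp had 0 UMIs.

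Calcr gave 1 UMI in kept cells, in a T or NK-like cell, and 0 in the osteoclast-like class. Its 4 other UMIs lay in barcodes with 10% to 30% mitochondrial UMIs.

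Co-detection in single cells was nearly limited to the osteoclast-like class. Of Ctsk, Atp6v0d2, Dcstamp, Ocstamp and Tnfrsf11a, at least 2 were found in 28 of 34 osteoclast-like cells, 3 of 222 macrophage-like cells, 2 of 631 monocyte-like cells and 1 of 116 osteoblast-like cells, and in no cell of the other classes. After thinning to 1000 UMIs it was 11 of 31 osteoclast-like cells and 0 elsewhere. Among the 34 cells, 10 had all 7 genes, 1 had none and 1 had 1.

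Within the osteoclast-like class the resorption genes were uneven among deep cells. Of 22 cells with at least 10000 UMIs, 15 had between 20 and 237 Ctsk UMIs and 7 had 0, although these 7 held between 12798 and 33351 UMIs. The split was made after the values were seen, uses Ctsk itself, and is given with no test. In the 15 cells Acp5 was at 4974 CPM against 593 CPM in the 7, and Atp6v0d2 at 736 against 61.4 CPM. Nfatc1 was at 551 against 191 CPM. Tnfrsf11a was alike, at 124 CPM (interval 95.3 to 159) and 136 CPM (83.3 to 211), and 6 of the 7 cells had a UMI.

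Other osteoclast genes differed in this split in part. Of 12 osteoclast markers 6 had a ratio whose interval lay above 1, as did 12 of 22 acid secretion genes and none of 14 RANK signalling genes, while 6 markers, 10 acid secretion genes and all 14 RANK signalling genes had an interval that holds 1. Markers of other cell types had intervals below 1, thus higher in the 7 cells, for 6 of 10 neutrophil and 4 of 8 monocyte markers. So did 4 of 8 progenitor, 3 of 7 macrophage and 3 of 3 dendritic cell markers with UMIs. Of these lists only the monocyte one had an interval above 1, for 1 marker. Ms4a6c, a monocyte marker, had a UMI in all 7 cells, and Slc9b2 in 1 of them. The share over all genes was not computed for this split, and whether an interval clears 1 depends on a gene's UMIs. The counts of the lists can therefore not be ranked against each other. Mmp9, a gelatinase, had 808 UMIs in the 15 cells and 0 in the 7, and Car2, the carbonic anhydrase that supplies protons, had 75 and 1. Myo10, a myosin of cell protrusions, was at 232 against 34.1 CPM. Csf1r, the M-CSF receptor, was at 319 (272 to 372) and 286 CPM (206 to 387), and Mitf at 100 and 102 CPM. Tcirg1, a pump subunit gene, was at 390 and 293 CPM, Src at 88.6 and 61.4 CPM and Itgav at 248 and 218 CPM, each with overlapping intervals. H2-Aa, an MHC class II gene, was at 197 against 777 CPM, with a UMI in all 7 cells. The 32 UMIs of C1qb, a macrophage complement gene, lay in 2 of the 7 cells, 22 of them in 1 cell, beside 2 UMIs in the 15. One of the 7 cells had 1421 S100a8 UMIs, a neutrophil gene, where each of the 15 cells had at most 8. The part of other cells' RNA in these 7 barcodes was not tested.

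**Figure D3:**
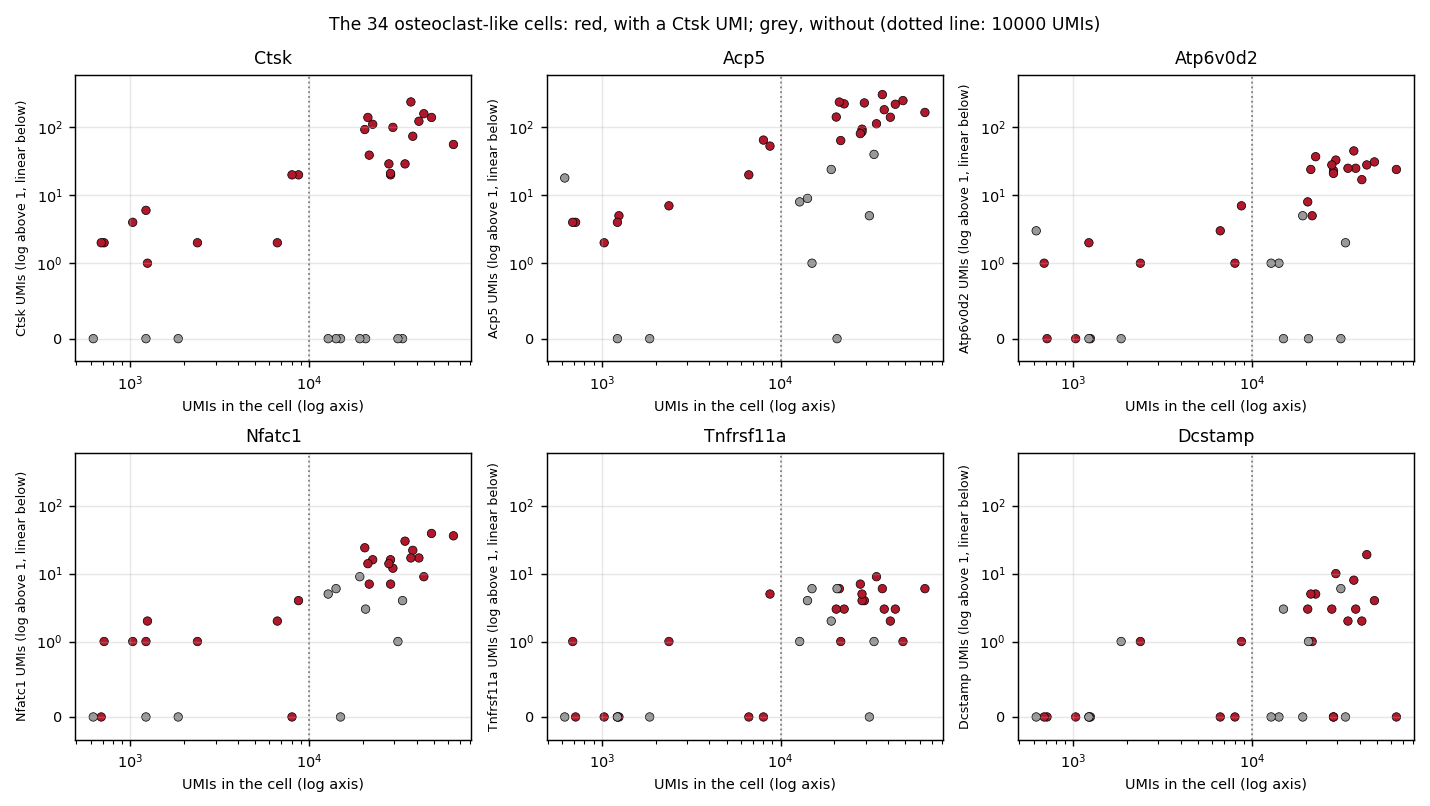
UMIs of 6 genes (vertical, log above 1 and linear below) against total UMIs (horizontal, log) in each of the 34 osteoclast-like cells; red points have a Ctsk UMI and grey points have none, and the dotted line marks 10000 UMIs. To the right of it 15 cells have 20 or more Ctsk UMIs and 7 have 0, and for Tnfrsf11a the grey and red points lie in the same range.

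A large part of the resorption genes' UMIs lay in barcodes that the mitochondrial limit of 10% left out. Kept cells held 80.1% of all UMIs of the matrix but 45.0% of the 3505 Ctsk UMIs, 45.6% of Ocstamp, 55.0% of Dcstamp, 55.3% of Acp5 and 57.5% of Atp6v0d2. Barcodes with 10% to 30% mitochondrial UMIs held 7.95% of all UMIs and 51.7% of Ctsk, 48.3% of Ocstamp, 42.1% of Dcstamp, 40.2% of Atp6v0d2 and 38.0% of Acp5. Tnfsf11 (89.1% kept) and Tnfrsf11b (all kept) did not share this, and Tnfrsf11a (72.8%) and Nfatc1 (74.8%) lay between.

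**Figure D4:**
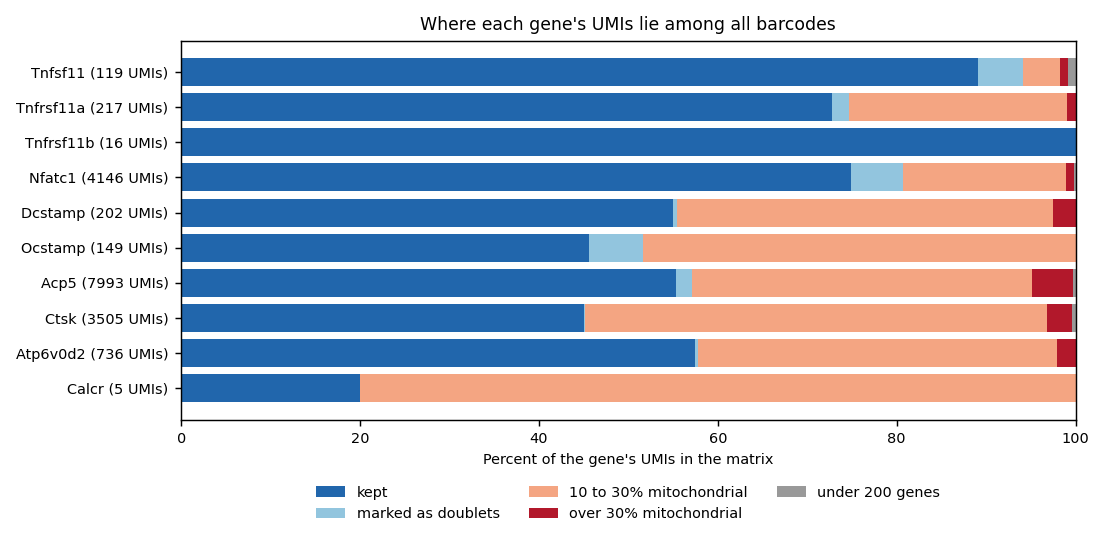
Percent of each gene's UMIs (horizontal) found in kept cells, in barcodes marked as doublets and in barcodes left out for mitochondrial share or few genes, for the 10 genes with their UMI totals. Between 38.0% and 51.7% of the UMIs of Acp5, Ctsk, Dcstamp, Ocstamp and Atp6v0d2 lie in barcodes with 10% to 30% mitochondrial UMIs, against 4.2% for Tnfsf11.

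With the limit at 30% the osteoclast-like class held 43 cells: 29 of the 34 above and 14 with a mitochondrial share above 10% (median 12.4%). Those 14 cells had a median of 19021 UMIs and higher levels of most of the genes than the 29. Ctsk was at 5819 CPM (interval 5548 to 6099) against 2181 CPM (2069 to 2297), Acp5 at 8248 against 4229 CPM, Ocstamp at 232 against 70.4 CPM and Dcstamp at 272 against 109 CPM. Nfatc1 was at 701 CPM (609 to 803) against 486 (434 to 543), and Tnfrsf11a at 131 (93.1 to 179) against 136 CPM (109 to 168). All 4 Calcr UMIs outside kept cells were in 3 of the 14 cells (13.4 CPM, interval 3.66 to 34.4). Levels for the 34 cells are therefore those of the cells with a low mitochondrial share.

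The other genes of the pathway, from lists chosen by function, are given by counts at the same 2-fold rule, to be read beside the 16.6% higher and 18.0% lower of all genes against all other cells, and 12.8% and 22.9% against the myeloid classes. For acid secretion 16 of 22 genes were higher and 2 lower against all other cells, with a median log2 fold of 2.08 beside 0.27 over all genes, and without the cell type markers 14 of 18 were higher. Atp6v1b2, a catalytic-domain subunit of the pump, was at 601 against 67.1 CPM, and Atp6v0c at 18.9 against 1.74 CPM. Atp6v0a1, a membrane-domain subunit used in other tissues, was lower with 1 UMI (1.45 against 19.8 CPM), and Car2 was lower at 110 against 607 CPM, a level carried by erythroid-like cells (2914 CPM). Against monocyte-like or macrophage-like cells 14 of 22 were higher and 1 lower (median 1.24 beside -0.14), and without the cell type markers 11 of 18 were higher.

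Osteoclast transcription factors other than Nfatc1 were higher for 5 of 8, among them Mitf (38.0-fold, interval 28.4 to 50.3) and Prdm1 (20.01-fold, 15.1 to 26.1), a repressor that silences anti-osteoclast genes. Fos was within 2-fold at 0.849. Against the myeloid classes 3 of the 8 were higher and 1 was lower, with a median log2 fold of 0.39. Of 7 repressors of osteoclast formation none was higher against all other cells and 1 was lower, the interferon regulatory factor Irf8 (0.165-fold, 0.0980 to 0.262). Against the myeloid classes 4 of the 7 were lower, with a median log2 fold of -2.0 beside -0.14 over all genes.

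Of 13 RANK signalling genes 2 were higher, a share near that of all genes: the co-receptor Trem2 (12.5-fold, 9.26 to 16.5) and Nfkb2 (2.12-fold, 1.61 to 2.75), and 1 was lower, Plcg2 (0.478-fold, 0.306 to 0.713). Traf6, the adaptor of RANK, was at 0.544-fold (0.271 to 0.975). Against the myeloid classes none of the 13 was higher and 5 were lower. In the fusion list 3 of 8 were higher, led by Myo10 (32.5-fold), and 2 were lower, near the share of all genes: Cd47 (0.271-fold) and Cd81 (0.121-fold). Among 11 adhesion genes 4 were higher, with Src, the kinase of the ruffled border, at 126-fold (85.9 to 187) and Itgav at 12.6-fold, and 2 were lower, Itgb3 (0.300-fold) and Ptk2b (0.237-fold). Against the myeloid classes 3 of 8 fusion genes were higher and 3 lower, and of 10 adhesion genes tested 4 were higher and 2 lower.

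Among 11 other proteases 6 were higher, led by Mmp14 (169-fold, interval 134 to 215), and Ctsh was lower (0.215-fold). Against the myeloid classes only 2 of them, Mmp9 and Mmp14, were higher and 6 were lower. Mmp9 is an osteoclast marker that helped to name the class. Without it 5 of 10 were higher against all other cells and 1 of 10 against the myeloid classes. Csf1r was 11.4-fold higher (9.81 to 13.1) against all cells, and its ligand gene Csf1 had 1 UMI (0.131-fold). The Csf1r level of 309 CPM in the class lay between 432 CPM in macrophage-like and 215 CPM in monocyte-like cells. Against the myeloid classes none of the 2 M-CSF genes tested was higher and 1 was lower. Of the genes that regulate Tnfsf11 or act beside it, 6 of 9 tested were higher in osteoblast-like cells, with a median log2 fold of 3.15 beside -0.00 over all genes, and 3 of 9 in osteoclast-like cells, led by Vdr (7.74-fold). The 6 include Pth1r, an osteoblast marker that helped to name the osteoblast-like class. Lifr, a cytokine receptor subunit, was at 268 CPM in osteoblast-like cells and 4.09 CPM in the others, and Vdr, the vitamin D receptor, at 66.9 and 3.98 CPM. Of 7 tested signals known from osteoclasts 2 were higher in the osteoclast-like class, where Slit3, Tnfsf8 and Cthrc1 had 0 UMIs.

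**Figure D5:**
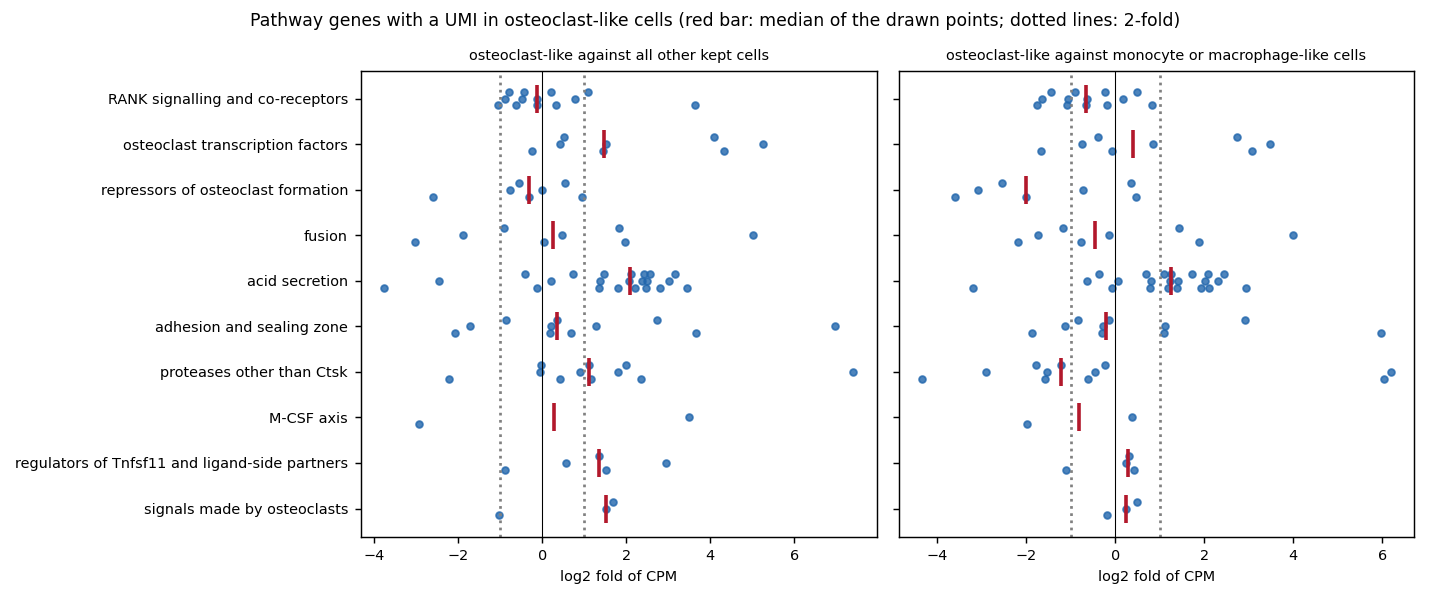
Log2 fold of CPM (horizontal) of each tested pathway gene that had a UMI in osteoclast-like cells, against all other kept cells (left) and monocyte-like or macrophage-like cells (right); rows are the lists, red bars the median of the drawn points and dotted lines 2-fold. Most acid secretion genes lie right of 2-fold in both panels, and repressors lie mostly left of 0 on the right.

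The genes most like each member were sought by Pearson correlation of log2(CPM + 1) across the 30 clusters, among 13615 genes. These clusters share 1 library and the osteoclast-like cluster weighs heavily, so the values describe this matrix only. Dcstamp and Ocstamp were each other's closest genes (r = 0.974), followed by Atp6v0d2 (0.934 with Dcstamp) and Cyp2s1 (0.941 with Ocstamp). Tnfrsf11a was closest to Slc13a3 (0.973) and then Ocstamp (0.935), Atp6v0d2 to Cyp2s1 (0.949), and Ctsk to Plxna4 (0.887). Acp5 had no gene above 0.736 (Pgpep1), and Nfatc1 was closest to Micall1 (0.884). Tnfsf11 was closest to Tmlhe (0.871), which had 0 UMIs in osteoclast-like cells.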

How the data were processed

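The cells of 1 group of 4 sample records were profiled with the 10x Genomics protocol, per the labels' protocols. The authors deposited a matrix of unnormalised UMI counts, and the submitters' processing notes name Cell Ranger 3.1.0, Seurat 3 and mm10 (the GRCm38 build). A second matrix of added sequences was not used. No deposited barcode had under 500 UMIs. Left out were 1335 barcodes in which fewer than 200 genes were detected and 2672 with a mitochondrial share above 10%. Scrublet in scanpy 1.11.5 marked 522 of the remaining 11007 (4.74%) as doublets, which were removed. Leiden clustering (leidenalg 0.10.2, resolution 1.0, seed 0) used 2000 variable genes without the 10 members, 30 principal components and 15 neighbours.

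To be named, a cluster needed 3 or more markers of a type at 2-fold or higher CPM than elsewhere, each seen in 10% or more of its cells, and the type with the largest number gave the name. It stayed unnamed at a tie, or where another type had more markers among its 10 leading genes. This rule was tightened after the clusters had been seen. The members and gene lists were chosen with earlier results of these data known.

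Counts were summed per class and divided by the class total (CPM), with exact Poisson intervals for CPM, Clopper-Pearson intervals for shares and conditional binomial intervals for ratios. A side at 0 was set at 3 counts and never called. Genes named are the 10 members, the 2 highest and 2 lowest genes of each pathway list by fold against all other cells, and the 3 most correlated genes of each member with at least 20 UMIs. Genes named in the comparison of deep cells were chosen after their values were seen. The fold rule was also run on simulated Poisson counts drawn from the pooled profile of all kept cells. These counts lack the spread between cells, so the run is not used as support here. Alternatives were other filters, resolutions, scalings, fold limits and thinning depths. The scripts ran in Python 3.11.15 with scipy 1.17.1 for the intervals, numpy 2.4.6 and pandas 2.3.3 for sums, igraph 0.11.9 for the graph, scikit-learn 1.9.0 and, for plots, matplotlib 3.10.9.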

Additional observations from a re-analysis of the deposited data

How the results depend on the processing

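The count of 7 higher genes against all other cells, and against monocyte-like or macrophage-like cells, was 7 under every alternative that gave an osteoclast-like class: mitochondrial limits of 30% and none (the latter chosen after seeing the data), resolution 2.0, members left among the variable genes, both other scalings, no filter on UMIs, and calls at 1.5-fold and 3-fold. Some of these settings could not change the count. Tnfsf11, Tnfrsf11b and Calcr had 0 UMIs in the class and a side at 0 is never called. Dropping the UMI filter or calling at 1.5-fold therefore had to give 7. Resolution 2.0 gave the same 34 cells, so the comparison with all other cells was the same. Leaving the 50 most abundant genes out of CPM moved the median log2 fold of all genes by -0.29. No osteoclast-like class was named at the 5% limit (7 of the 34 cells passed it), at 1500 UMIs (26 of 27 fell in a macrophage-like cluster of 106), at resolution 0.5 (all 34 in an unnamed cluster of 331) or with doublets kept (all 34 in a macrophage-like cluster of 261), so those settings gave no value. Of Tnfsf11 and Tnfrsf11b, 1 was called higher in osteoblast-like cells; it was 0 at resolution 2.0, where the class held 14 cells, and 2 with no filter on UMIs, since Tnfrsf11b then enters the genes tested. The count of different pathway genes called higher, leaving out the osteoclast markers, was 38, and 27 when called at 3-fold. With cells thinned to 500 or 2000 UMIs, 2 and 3 of the 10 genes were found in at least 50% of osteoclast-like cells, beside 2 at 1000. Of 134 recomputed single-gene folds 122 stayed within their counting interval, 12 moved beyond it and 0 reversed. The 122 include folds that could not change. These are the folds with no filter on UMIs, and those of the osteoclast-like class against all other cells at resolution 2.0. The 134 hold Tnfsf11, Tnfrsf11b and Ctsk for osteoblast-like cells, not Atp6v0d2. The direction of Atp6v0d2 turned without the osteoclast-like cells among the others (chosen after seeing the data). Leaving out records was not possible, since the matrix pools them. At 106, 16 and 1 UMIs in kept cells, Tnfsf11, Tnfrsf11b and Calcr have wide counting intervals.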
